A study of Homo sapiens with 20 samples.

Results

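The peaks described here are those that the deposited peak lists place on transcripts annotated as retained introns. Members were all rows of the 4 lists whose transcript carries the biotype retained_intron in its name, 59174 of 495936 rows in all. The knockout IP list held 20506 of them, the knockout IgG list 17719, the wild type IP list 10447 and the wild type IgG list 10502. Each row is 1 summit, and several summits can share 1 region of a transcript.

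A retained-intron transcript keeps, in the mature RNA, sequence that is spliced out of the gene's coding isoforms. Such transcripts are annotated for many highly expressed genes, often stay in the nucleus, and, where exported, can be removed by nonsense-mediated decay. N4-acetylcytidine (ac4C) is a modified cytidine made by the acetyltransferase NAT10, which acts on ribosomal and transfer RNA and has been reported on messenger RNA.

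The series compared K562 cells, a human erythroid leukaemia line, in which CRISPR-Cas9 removed exon 5 of NAT10, with the parental K562 cells carrying intact NAT10. In acRIP-seq, RNA depleted of ribosomal RNA was fragmented and pulled down with an antibody to ac4C (IP) or with normal rabbit IgG, with input RNA sequenced beside them. There were 2 libraries of each kind per genotype, and RNA-seq and ribosome profiling (Ribo-seq) also had 2 libraries per genotype. Both genotypes grew in the same medium without a differentiating agent named in the labels, and the labels do not say whether the knockout is 1 clone or if the replicates came from different cultures, so the p-values cover library-to-library spread, which may be technical. The 2 knockout RNA-seq libraries differed by little more than sampling noise and were tested as 1 summed sample, so that RNA p-values rest on the spread of the wild type pair alone, while each library's level is still given. The peak lists were made from merged replicates, 1 list for each antibody and genotype, so differences between lists have no replicate check and no test; intervals for shares are exact binomial and cover counting error only.

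NAT10 RNA stood at 49.9 and 49.3 CPM (counts scaled to the library total) in knockout cells, against 138.5 and 144.4 CPM in wild type cells (log2 change -1.51, SE 0.09, adjusted p = 0.000102, edgeR's quasi-likelihood test over all genes). NAT10 footprints were at 55.4 and 48.3 CPM in knockout cells and at 176.2 and 187.6 CPM in wild type cells. No list had a retained-intron peak on NAT10. The knockout RNA-seq libraries held 18093324 and 18778485 counts, against 10388717 and 12725302 counts for wild type, and Ribo-seq totals lay between 621287 and 1220308. Of the K562 markers given here, HBG1, HBG2, HBZ, GATA1, KLF1, TFRC and TAL1 were all present, while among the other cells' markers MS4A1 was at 0 in every library and ALB reached at most 0.157 CPM.

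The knockout lists held more retained-intron peaks than the wild type lists with both antibodies. The ratio of peak numbers, knockout over wild type, was 1.96 in the IP lists and 1.69 in the IgG lists. Over peaks of every biotype the same ratios were 1.77 and 1.58, and over protein-coding transcripts they were 1.60 and 1.43. Retained-intron peaks therefore made up 12.6% (12.4 to 12.7) of the knockout IP list and 12.0% (11.8 to 12.2) of the knockout IgG list, against 11.3% (11.1 to 11.5) of the wild type IP list and 11.3% (11.1 to 11.5) of the wild type IgG list. Between antibodies the numbers were close in wild type cells, with an IP over IgG ratio of 0.995, and stood at 1.16 in knockout cells.

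**Figure D1:**
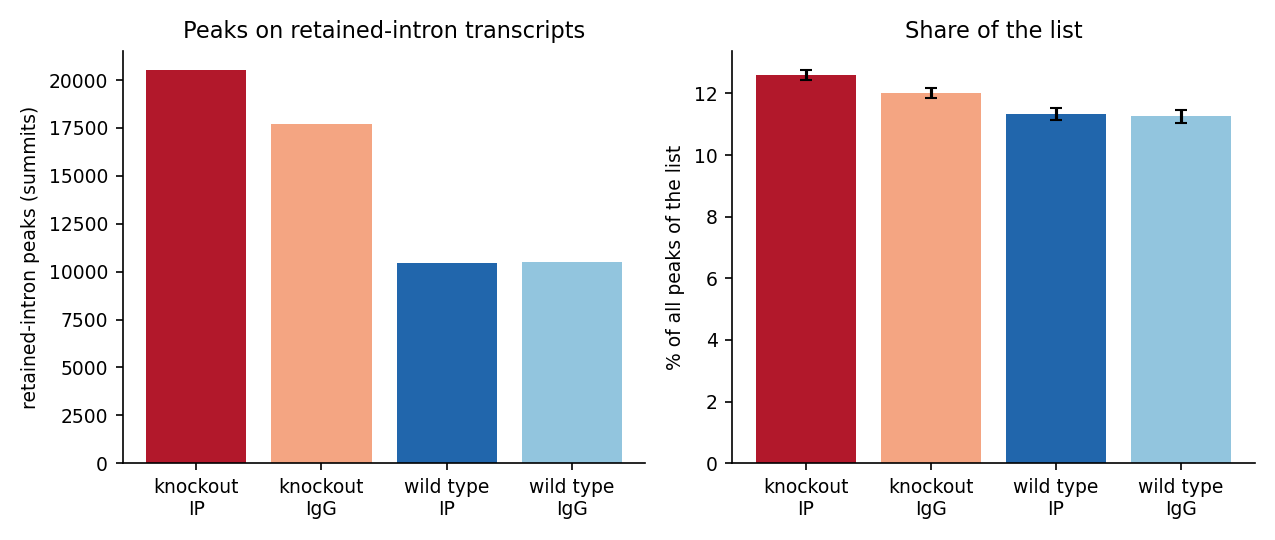
Number of retained-intron peaks (summits, left) and their share of all peaks of the list in percent (right) for the 4 lists, with bars from 0 and 95% exact binomial intervals on the share. The knockout lists reach 20506 and 17719 peaks, against 10447 and 10502 in the wild type lists.

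The peaks lay on 8906 transcripts of 4526 genes in the knockout IP list, 8100 transcripts of 4276 genes in the knockout IgG list, 6037 transcripts of 2899 genes in the wild type IP list and 5963 transcripts of 2902 genes in the wild type IgG list. Of the 10925 retained-intron transcripts with a peak in any list, 3768 (34.5%) had one in all 4, against 37.7% of 66058 transcripts of every biotype. A further 3498 transcripts (32.0%) had peaks in both knockout lists and in neither wild type list, and 1196 (10.9%) had peaks in both wild type lists and in neither knockout list, against 28.4% and 12.8% over every biotype. By antibody, 38 transcripts (0.348%) had peaks in both IP lists and in neither IgG list, and 14 (0.128%) in both IgG lists and in neither IP list, against 0.253% and 0.127% over every biotype. The split by genotype was thus also present over the lists as a whole.

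The height of a peak is given here by the fold in column 7 of the lists, the authors' value for the summit over background. In each list this fold was a whole multiple of a single step in 100% of rows (tolerance 0.05 of a step), and each fold had 1 p-value. The step was 0.104 in the knockout IP list, 0.142 in the knockout IgG list, 0.0309 in the wild type IP list and 0.0330 in the wild type IgG list. The fold thus orders peaks of 1 list on a scale shared by the whole list, and how a transcript's own input entered it is not stated in the sources used. The lowest retained-intron peaks had 20 and 16 steps in the knockout IP and IgG lists, against 51 and 48 in the wild type IP and IgG lists, and regions had a median width of 294 and 282 nt in knockout, against 468 and 468 nt in wild type lists. Folds are therefore compared between genotypes as the lists' own values, whose backgrounds differ, and the part of read depth in the genotype differences was not tested.

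Retained-intron folds overlapped widely among the lists. The median was 4.59 (quartiles 3.23 and 7.92) in the knockout IP list, 5.12 (3.56 and 8.68) in the knockout IgG list, 4.08 (2.69 and 7.54) in the wild type IP list and 4.09 (2.67 and 7.45) in the wild type IgG list. In neither genotype was the IP median above the IgG median. On protein-coding transcripts the medians were 4.59 in the knockout IP list, 4.84 in the knockout IgG list, 3.83 in the wild type IP list and 3.86 in the wild type IgG list.

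**Figure D2:**
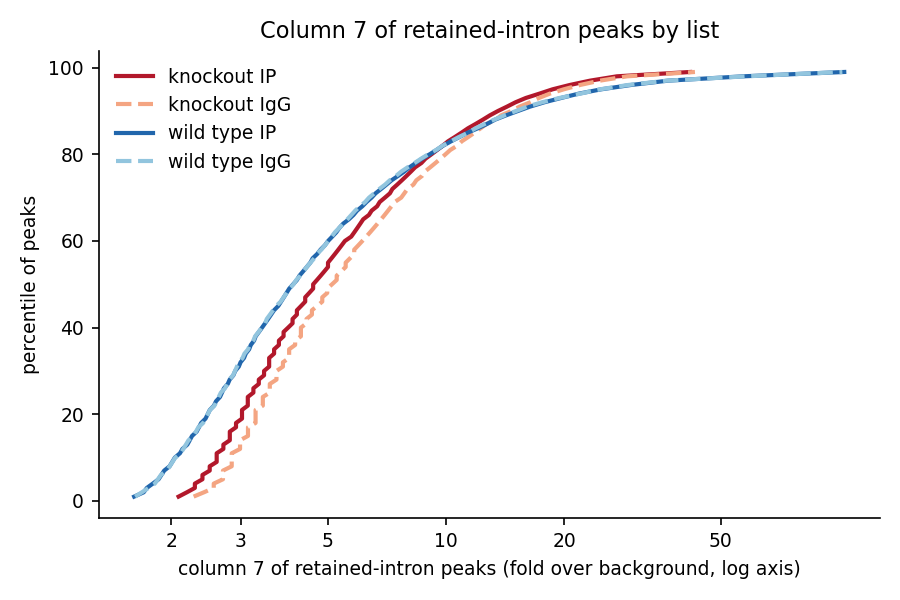
Percentiles of the fold in column 7 over retained-intron peaks, on a log axis, for the knockout lists (red) and the wild type lists (blue), with IP as solid and IgG as dashed lines. The 2 wild type lines run together around a median of 4.08 and 4.09, and the knockout IgG line lies to the right of the knockout IP line (medians 5.12 and 4.59).

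IP and IgG lists of 1 genotype were called against the same input, per the list names, and shared most retained-intron peaks. In knockout cells 2967 of 20506 IP peaks (14.5%, 13.99 to 14.96) had no IgG peak overlapping by at least 1 base on the same transcript, where the share over all peaks was 11.7%. In wild type cells 526 of 10447 IP peaks (5.03%, 4.62 to 5.47) had none, where the share over all peaks was 3.63%. Other biotypes gave like shares. On transcripts annotated for nonsense-mediated decay they were 15.2% in knockout and 4.95% in wild type cells, and on processed transcripts 14.8% and 4.42%. The unshared IP peaks were low, with a median fold of 2.92 against 5.21 for shared peaks in knockout cells and 2.19 against 4.30 in wild type cells.

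The 38 transcripts with peaks in both IP lists alone belonged to 37 genes, and their peaks were low. Their median fold was 3.02 in the knockout IP list and 2.16 in the wild type IP list, and the 2 summits lay within 100 nt of each other on 24 of them. The highest by the lower of its folds, chosen after their values were seen, was on ADH5-206, an isoform of a glutathione-dependent formaldehyde dehydrogenase, with a fold of 3.75 in the knockout IP list and 3.80 in the wild type IP list.

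On shared peaks the IP fold was close to the IgG fold. The median log2 ratio of IP over IgG was -0.02 over 17539 pairs in knockout cells and 0.02 over 9921 pairs in wild type cells. In knockout cells 1223 pairs (6.97%) were over 1.5-fold higher in IP and 1831 (10.4%) over 1.5-fold lower, against 8.15% and 11.2% over all peaks. In wild type cells 39 pairs (0.393%) were over 1.5-fold higher and 188 (1.89%) over 1.5-fold lower, against 0.391% and 2.20% over all peaks. Taking each gene's highest retained-intron fold, 3 of 2763 genes were over 1.5-fold higher in the wild type IP list and 8 over 1.5-fold lower, which is 0.109% and 0.290% of genes, where over all transcripts of a gene the shares were 0.0953% and 0.402%. In knockout cells 185 of 4099 genes were over 1.5-fold higher in IP and 182 lower, which is 4.51% and 4.44%, where over all transcripts the shares were 5.32% and 5.58%. The shares among retained-intron peaks were near those of the whole lists in both genotypes.

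The IP peaks that stood out by lacking an IgG peak included short, highly expressed messages. RPS27-201, from a gene for a small ribosomal subunit protein, had a summit at nt 87 of 625 with a fold of 20.7 in the knockout IP list and no peak in the other 3 lists. In each of those lists, however, RPS27 had peaks on 2 other retained-intron transcripts. H2AZ1-204, from the gene of a histone variant, had such a summit at nt 177 with a fold of 13.7 in the knockout IP list, but its highest summit, close to the 3′ end, was in all 4 lists. ATP5ME-205, from a gene for an ATP synthase subunit, had a fold of 11.9 in the knockout IP list and no knockout IgG peak, and a fold of 20.1 in the wild type IgG list with no wild type IP peak. EDEM3-206, from the gene of an enzyme in the disposal of misfolded glycoproteins, had a fold of 11.2 in the knockout IP list alone. HNRNPH1-226, from the gene of a splicing regulator, had a fold of 9.49 in that list alone, yet HNRNPH1 had retained-intron peaks on 13 transcripts in the knockout IP and 13 in the knockout IgG list.

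In wild type cells the highest such IP peak was on RPS20-203, from another small subunit protein gene, with a fold of 12.9 at nt 113. Its fold was 19.7 in the knockout IP list and 13.7 in the knockout IgG list, so the transcript had peaks in every list but the wild type IgG one. XRCC6-207, from the gene of a DNA end-binding subunit, had a fold of 6.18 in the wild type IP list alone. In each of the other lists XRCC6 had a peak on 1 other retained-intron transcript. SCAMP2-204, from a membrane trafficking gene, had a fold of 4.51 at nt 158, MAGOHB-203, from a gene of the exon junction complex, one of 4.33, and BTG3-205, from an antiproliferative gene, one of 4.14. None of these 5 came near the highest peaks shared with IgG.

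Between genotypes the retained-intron peaks overlapped less. Of the knockout IP peaks, 9277 of 20506 (45.2%, 44.6 to 45.9) overlapped no wild type IP peak, against 35.8% over all peaks and 26.6% on protein-coding transcripts. Of the wild type IP peaks, 2791 of 10447 (26.7%, 25.9 to 27.6) overlapped no knockout IP peak, against 23.2% over all peaks. The IgG lists gave like shares, 46.8% of knockout IgG peaks with no wild type IgG peak (36.7% over all peaks) and 32.9% of wild type IgG peaks with no knockout IgG peak (27.4% over all peaks). The gap between retained-intron and all peaks was thus seen with either antibody, but it was not particular to retained introns. On transcripts annotated as processed transcripts, 47.8% of knockout IP and 47.5% of knockout IgG peaks overlapped no wild type peak of the same antibody. On transcripts annotated for nonsense-mediated decay these shares were 27.9% and 29.1%. Of wild type IP peaks, 28.8% on processed transcripts and 32.5% on nonsense-mediated decay transcripts overlapped no knockout IP peak.

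Where knockout and wild type IP peaks overlapped, the knockout fold was more often the lower one. Each knockout peak was paired with the overlapping wild type peak of nearest summit, so 1 wild type peak could serve several knockout peaks. The median log2 ratio, knockout over wild type, was -0.30 over 11229 pairs (95% interval -0.33 to -0.28). Of these, 2324 pairs (20.7%) were over 1.5-fold higher and 4489 (40.0%) over 1.5-fold lower, against 25.7% and 36.1% over all peaks. In the IgG lists the median was -0.27 over 9418 pairs, with 22.9% higher and 39.1% lower, against 27.2% and 36.2% over all peaks. Pairing from each wild type IP peak instead gave a smaller difference, a median log2 ratio of wild type over knockout of 0.18 over 7656 pairs. Of these, 34.1% were over 1.5-fold higher in wild type and 22.8% lower, against 31.8% and 25.9% over all peaks. Taken by each gene's highest retained-intron fold, the sign of knockout over wild type turned. The median was then 0.18 over 2447 genes in the IP lists and 0.21 over 2306 genes in the IgG lists. In the IP lists 37.8% of genes were over 1.5-fold higher in knockout and 27.5% lower, and over all transcripts of a gene 47.5% and 23.9%. In the IgG lists 39.8% were higher and 28.6% lower, and over all transcripts of a gene 47.6% and 25.9%.

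Ribosomal protein genes carried most of the highest retained-intron peaks of the wild type IP list, 63 of its top 100. Retained-intron peaks were on 39 of 47 large subunit genes with any peak in the knockout IP list and on 33 of 47 in the wild type IP list, and on 28 of 33 and 26 of 33 small subunit genes. Over all genes with a peak the shares with a retained-intron peak were 24.98% in the knockout IP list and 30.04% in the wild type IP list. The median of the genes' highest folds was 40.8 in the knockout IP and 41.4 in the knockout IgG list for large subunit genes, against 118.1 in the wild type IP and 118.5 in the wild type IgG list. Of 33 large subunit genes with retained-intron peaks in both IP lists, 24 were over 1.5-fold lower in knockout and 1 higher, with a median log2 ratio of -1.01 (-0.998 over 34 genes in the IgG lists). Of 26 small subunit genes 20 were lower and 4 higher, with a median of -1.18 (-1.20 over 26 genes in IgG).

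RPS18-236 was the highest retained-intron peak of the wild type IP list. Its fold was 116.3 in the knockout IP and 129.0 in the knockout IgG list, against 356.5 in the wild type IP and 361.4 in the wild type IgG list. RPL13-213 had 75.3 and 59.4 in the knockout IP and IgG lists, against 306.5 and 264.4 in the wild type IP and IgG lists. RPL35-203 had 95.1 in the knockout IP and 75.7 in the knockout IgG list, against 298.0 in the wild type IP and 319.7 in the wild type IgG list. RPS2-211 had 75.8 and 93.4 in the knockout IP and IgG lists, against 269.7 and 257.9 in the wild type IP and IgG lists. In all these the wild type folds lay above the knockout folds with both antibodies.

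The ribosomal protein genes were not uniform. RPL13A-204 had 224.5 in the knockout IP and 142.6 in the knockout IgG list, against 229.1 in the wild type IP and 229.6 in the wild type IgG list, with its summit between nt 150 and 174 of 728 in all 4. RPL37A-201 had 145.6 and 172.2 in the knockout IP and IgG lists, against 210.7 and 227.2 in the wild type IP and IgG lists. RPLP1-204, from the gene of an acidic stalk protein, had 161.7 and 104.1 in the knockout IP and IgG lists, against 129.5 and 146.7 in the wild type IP and IgG lists. RPL3-214 had 45.04 in the knockout IP and 33.2 in the knockout IgG list and no peak in either wild type list, although RPL3 had wild type IP peaks on 5 other retained-intron transcripts. RPL13A RNA fell in knockout cells, at 1113 and 1097 CPM against 1524 and 1738 CPM in wild type cells (log2 -0.56, SE 0.13, adjusted p = 0.0254 by edgeR). RPL3 RNA also fell (log2 -0.76, SE 0.12, adjusted p = 0.00528 by edgeR). Of the ribosomal protein genes with a retained-intron IP peak in either genotype, RNA fell in 5 of 39 large subunit and 3 of 28 small subunit genes and rose in none at this threshold, where 8.79% of all genes tested fell and 5.17% rose, with median log2 changes of -0.23 and -0.17. Many ribosomal protein genes have near-identical processed pseudogenes, and the placing of reads with several matches is not stated in the sources used.

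Globin and other erythroid genes followed the same order. Of 16 erythroid genes with retained-intron peaks in both IP lists, 9 were over 1.5-fold lower in knockout and 5 higher, with a median log2 ratio of -0.88 (-1.72 over 13 genes in the IgG lists). HBG1-203, from a fetal gamma-globin gene, had 83.1 in the knockout IP and 75.7 in the knockout IgG list, against 247.6 in the wild type IP and 251.3 in the wild type IgG list. HBA1-203, from an adult alpha-globin gene, had 13.7 and 19.5 in the knockout IP and IgG lists, against 148.6 and 146.7 in the wild type IP and IgG lists. FTH1-211, from the ferritin heavy chain gene, had 47.8 and 27.9 in the knockout IP and IgG lists, against 176.2 and 163.8 in the wild type IP and IgG lists.

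The RNA of both globin genes moved the other way. HBG1 RNA stood at 78.5 and 76.2 CPM in knockout cells, against 33.5 and 35.1 CPM in wild type cells (log2 1.17, SE 0.10, adjusted p = 0.000476 by edgeR). HBA1 RNA stood at 167.6 and 161.6 CPM in knockout cells, against 73.7 and 73.5 CPM in wild type cells (log2 1.16, SE 0.07, adjusted p = 0.000138 by edgeR). HBG1 footprints rose as well, to 135.5 and 120.7 CPM in knockout cells, against 51.6 and 48.3 CPM in wild type cells (log2 1.33, SE 0.20, adjusted p = 0.00278 by edgeR). Of 24 erythroid genes with a retained-intron IP peak in either genotype, RNA rose in 7 and fell in 2, where 5.17% of all genes tested rose and 8.79% fell. HBG1 and HBA1 each have a near-identical copy, so the split of reads within each pair is uncertain.

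The remaining gene lists differed in direction, and none of their differences was tested. Glycolytic genes had a median log2 ratio of -1.002 over 12 genes in the IP lists, with 7 lower and 3 higher, and ENO1-203, from the enolase gene, had 62.1 in the knockout IP and 48.1 in the knockout IgG list, against 108.2 in the wild type IP and 112.1 in the wild type IgG list. Heat shock and chaperone genes had a median of -0.47 over 18 genes, with 7 lower and 2 higher. Cytoskeleton genes, with 7 lower and 5 higher of 18, had a median of -0.12, and translation factor genes, with 15 lower and 9 higher of 37, one of -0.10 (0.06 over 36 genes in the IgG lists). HSPB1-203, from a small heat shock protein gene, had 7.19 and 5.98 in the knockout IP and IgG lists, against 62.7 and 62.0 in the wild type IP and IgG lists, while HSPB1 RNA rose in knockout cells (log2 0.42, SE 0.08, adjusted p = 0.0126 by edgeR). DEAD-box and DEAH-box helicase genes had a median of 0.62 over 23 genes, with 12 higher and 3 lower (0.78 over 22 genes in the IgG lists). RNA passed the test in none of 31 helicase genes with a retained-intron IP peak, where 5.17% of all genes tested rose and 8.79% fell. The median log2 RNA change of these helicase genes was -0.01. Genes of the core spliceosome had a median of 0.37 over 26 genes, with 10 higher and 5 lower. The fold counts of all these lists are read against 37.8% higher and 27.5% lower over all genes with retained-intron peaks in both IP lists.

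**Figure D3:**
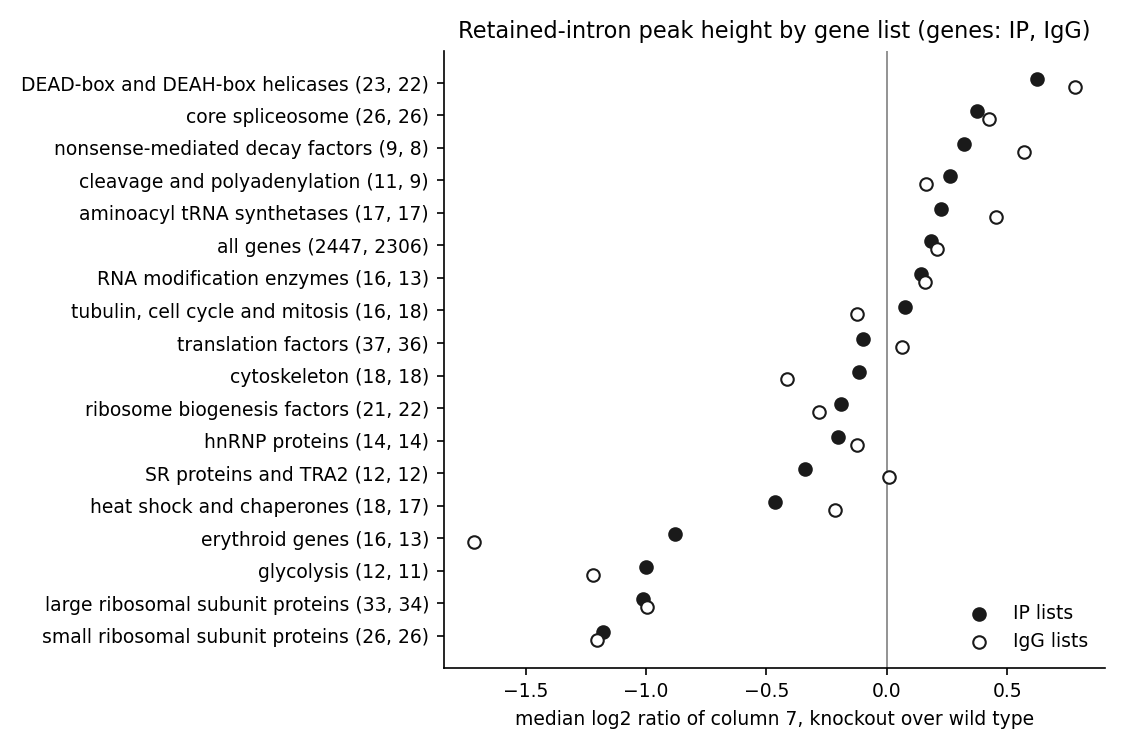
Median log2 ratio, knockout over wild type, of the genes' highest retained-intron fold for each gene list with at least 9 genes in the IP comparison, with IP lists as filled and IgG lists as open circles and the numbers of genes after each name. Ribosomal protein genes are lowest in the IP lists (-1.01 and -1.18), helicases highest (0.62), and IP and IgG medians mostly lie near each other.

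Genes of splicing and of RNA decay had retained-intron peaks in most members, as did other gene lists. SR protein genes, which code for splicing factors, had them in 12 of 16 genes in the knockout IP list and in 12 of 15 in the wild type IP list. Genes of the hnRNP list, which holds HNRNPL, had them in 15 of 29 and 15 of 28. Genes of nonsense-mediated decay factors had them in 9 of 15 and 10 of 14. Over all genes with a peak the shares were 24.98% and 30.04% in the knockout and wild type IP lists. Among lists of other functions, aminoacyl tRNA synthetase genes were at 90% and 89.5% and translation factor genes at 86.4% and 84.1%. Erythroid genes were at 47.7% and 42.2%. In the IgG lists the SR share was 75% in knockout and 80% in wild type cells. SRSF3-201 had 23.1 in the knockout IP and 17.1 in the knockout IgG list, against 49.5 in the wild type IP and 49.4 in the wild type IgG list. SRSF2-206 had 15.7 and 17.7 in the knockout IP and IgG lists, against 24.3 and 23.8 in the wild type IP and IgG lists. Over the SR list the median log2 ratio was -0.34 in the IP lists and 0.01 in the IgG lists, over 12 genes each. HNRNPL-203, from the gene of a splicing regulator, had 14.4 and 8.83 in the knockout IP and IgG lists, against 43.0 and 42.5 in the wild type IP and IgG lists.

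Some decay genes stood on the other side. SMG1-217, from the gene of the kinase that acts on UPF1 in nonsense-mediated decay, had 33.6 in the knockout IP and 32.6 in the knockout IgG list, against 2.50 in the wild type IP and 2.67 in the wild type IgG list. SMG1 footprints rose, to 98.8 and 117.5 CPM in knockout cells, against 45.9 and 43.9 CPM in wild type cells (log2 1.21, SE 0.21, adjusted p = 0.00687 by edgeR). EIF4A3-205, from the gene of a core protein of the exon junction complex, had 22.8 and 20.6 in the knockout IP and IgG lists, against 2.10 and 2.24 in the wild type IP and IgG lists. RNPS1-206, from a gene of the complex that joins splicing to decay, had 8.76 and 6.55 in the knockout IP and IgG lists, against 14.3 and 12.1 in the wild type IP and IgG lists. DDX17-201, from a helicase gene, had 18 summits in the knockout IP list and 13 in the wild type IP list, and its footprints fell in knockout cells (log2 -0.56, SE 0.15, adjusted p = 0.0469 by edgeR), a call lost without knockout library 1 (-0.50) or wild type library 1 (-0.60) or 2 (-0.52). CLK4-202, from the gene of a kinase that acts on SR proteins, had 11.2 in the knockout IP and 12.95 in the knockout IgG list and no peak in the wild type lists.

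The highest retained-intron peak of the knockout lists was on SNHG3-202, from a host gene of small nucleolar RNAs. Its fold was 292.4 in the knockout IP and 250.7 in the knockout IgG list, against 84.0 in the wild type IP and 90.8 in the wild type IgG list. The highest summit lay at nt 1103 and 1104 of 2614 in the knockout lists and at nt 2218 and 2240 in the wild type lists. SNHG3 RNA was at 178.5 and 181.4 CPM in knockout cells and at 195.2 and 219.7 CPM in wild type cells, a difference that did not pass the test (adjusted p = 0.245 by edgeR). The SNHG genes and GAS5, a list chosen after values were seen, gave 26 symbols with a peak in any list. Of these, 9 had retained-intron peaks in the knockout IP list and 7 in the wild type IP list. Of all 19614 genes with a peak in any list, 4523 and 2897 had them.

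TMEM45A-207, from the gene of a transmembrane protein, had 172.5 in the knockout IP and 209.0 in the knockout IgG list, against 16.2 in the wild type IP and 15.2 in the wild type IgG list, with its summit between nt 2231 and 2273 of 4615 in all 4. TMEM45A had 5 and 5 RNA-seq counts in the knockout and 6 and 5 in the wild type libraries, and no peak on a coding transcript in any list. A high fold on this retained-intron transcript thus stood beside almost no counts on the gene's annotated exons.

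**Figure D4:**
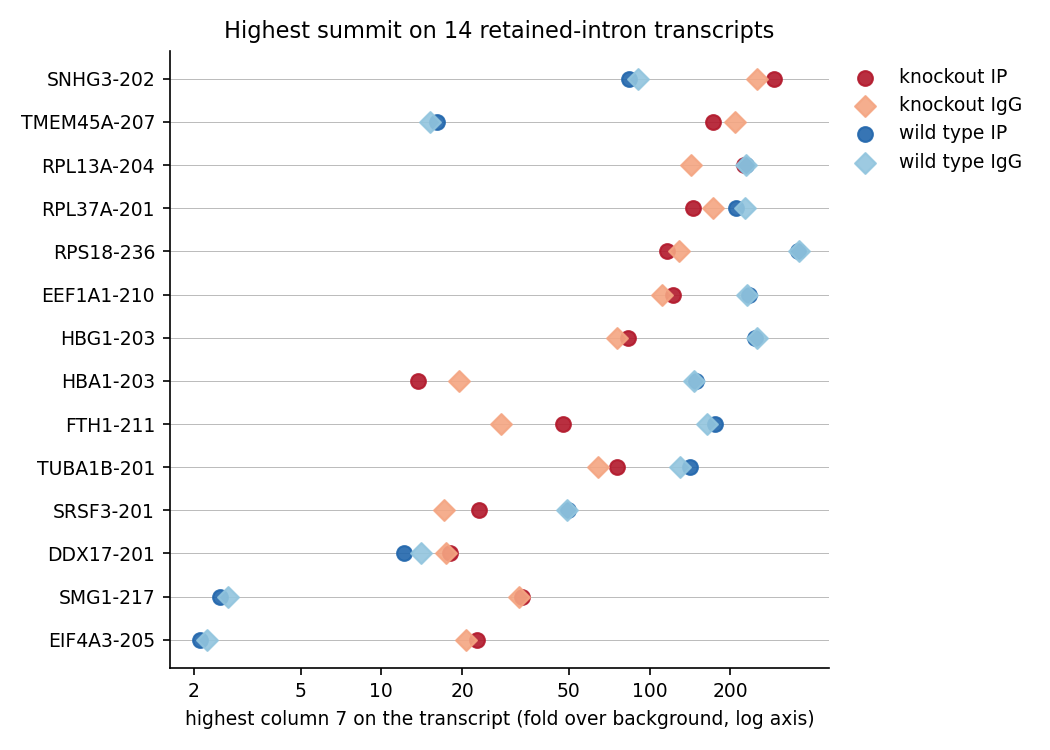
Highest fold in column 7 on 14 retained-intron transcripts, on a log axis, for the knockout IP and IgG lists (red circles and orange diamonds) and the wild type IP and IgG lists (dark blue circles and light blue diamonds). IP and IgG symbols of 1 genotype lie together, for SMG1-217 near 33 in knockout and under 3 in wild type lists.

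Peaks on transcripts without any peak in the other genotype were led by different genes. In knockout cells CSPP1-222, from a gene of a centrosome and spindle pole protein, had 67.5 in the IP and 104.6 in the IgG list. USP32P2-202, from a pseudogene of a ubiquitin protease, had 49.0 in the knockout IP and 48.0 in the knockout IgG list. USP32P2 had 0 RNA-seq counts in every library, and the placing of reads that also match its parent gene is not stated. EEF2-203, from the gene of the factor that moves the ribosome along the message, had 54.0 and 58.9 in the knockout IP and IgG lists, and EIF4A1-230, from the gene of a translation initiation helicase, had 43.8 and 33.5. EEF2 RNA fell in knockout cells, to 4957 and 4980 CPM against 8267 and 7639 CPM in wild type cells (log2 -0.67, SE 0.10, adjusted p = 0.00475 by edgeR). EEF2 still had wild type IP peaks on 3 other retained-intron transcripts, and EIF4A1 on 9.

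In wild type cells the leading transcripts without a knockout peak had lower folds. EIF1B-202, from a gene related to a start codon selection factor, had 19.8 in the wild type IP and 20.8 in the wild type IgG list. NDUFB8-207, from a gene of respiratory complex I, had 18.3 and 19.4, and ENY2-206, from a gene of messenger RNA export, had 16.0 and 17.1 in the wild type IP and IgG lists. SELENOW-214, from a selenoprotein gene, had 14.8 and 14.4 in those lists, and RNASEK-C17orf49-202, a transcript joining adjacent genes, had 13.4 and 13.4. NDUFB8 and SELENOW still had knockout IP peaks on 2 other retained-intron transcripts each, and ENY2 and RNASEK-C17orf49 on 1 each. EIF1B had none there, but its coding transcripts reached a fold of 9.38 in the knockout IP list. EIF1B RNA rose in knockout cells (log2 0.47, SE 0.09, adjusted p = 0.0117 by edgeR), although its retained-intron peaks were in the wild type lists. All these genotype-limited peaks were in the IgG list as well as in the IP list of their genotype.

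Some genes had peaks on many retained-intron isoforms, which share exons, so 1 stretch of reads can be listed several times. In the knockout IP list GAS5, a host gene of small nucleolar RNAs, had peaks on 17 such transcripts, IMPDH2, which makes guanine nucleotides, on 16 and SPG7, a mitochondrial protease gene, on 16. In the wild type IP list CTSH, a lysosomal protease gene, had them on 24, IMPDH2 on 23 and GAS5 on 18. SPG7 had peaks on 14 transcripts in the knockout IgG list and on none in the wild type lists. CTSH RNA fell, at 184.2 and 185.3 CPM in knockout cells against 288.9 and 285.6 CPM in wild type cells (log2 -0.63, SE 0.08, adjusted p = 0.00292 by edgeR), and CTSH footprints fell too (log2 -1.33, SE 0.15, adjusted p = 0.000657 by edgeR). Peaks of identical width and fold on another biotype of the same gene were few, with 10 in the knockout IP, 12 in the knockout IgG, 3 in the wild type IP and 5 in the wild type IgG list. This strict rule misses shared stretches that differ at all in width or fold, so it does not measure how often reads were listed several times.

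Most genes with retained-intron peaks also had peaks on coding transcripts. The share was 75.1% in the knockout IP list, 73.3% in the knockout IgG list, 93.1% in the wild type IP list and 92.9% in the wild type IgG list. Genes whose only peaks were on retained introns numbered 835 (18.4%) in the knockout IP and 839 (19.6%) in the knockout IgG list, against 140 (4.83%) in the wild type IP and 145 (5.00%) in the wild type IgG list. Their RNA was lower than that of the other genes with retained-intron peaks, with a median log2 CPM of 3.50 against 6.27 in the knockout IP list and 3.95 against 6.34 in the wild type IP list.

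In genes with both kinds of peak the retained-intron peak was usually the lower one. The median log2 ratio of the highest retained-intron over the highest coding fold was -0.33 in the knockout IP, -0.27 in the knockout IgG, -0.55 in the wild type IP and -0.58 in the wild type IgG list. It was over 1.5-fold higher in 20.7% of genes in the knockout IP and 21.1% in the knockout IgG list, against 1.15% in the wild type IP and 1.19% in the wild type IgG list. Of 1868 genes with both kinds in all 4 lists, 7 had a retained-intron peak over 1.5-fold higher in every list. The one with the largest gap in its least favourable list, named after its values were seen, was PABPC1L, a gene related to poly(A)-binding protein, with retained-intron folds of 18.7 in the knockout IP and 7.54 in the wild type IP list, against coding folds of 4.48 and 3.31. BLOC1S6, a gene of lysosome-related organelle formation chosen likewise, had 75.3 in the knockout IP and 8.01 in the wild type IP list, against coding folds of 18.5 and 3.89.

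By summit, retained-intron peaks lay nearer the 3′ end in wild type than in knockout lists, but by region midpoint that order held for IP and turned for IgG. The last of 3 equal parts of the transcript held 35.7% (35.1 to 36.4) of summits in the knockout IP, 38.1% (37.4 to 38.8) in the knockout IgG, 40.7% (39.7 to 41.6) in the wild type IP and 41.7% (40.8 to 42.7) in the wild type IgG list. On protein-coding transcripts the same part held 32.6% in the knockout IP, 35.7% in the knockout IgG, 33.8% in the wild type IP and 35.2% in the wild type IgG list. On retained-intron transcripts of 3000 nt or more it held 35.1% in the knockout IP and 36.4% in the knockout IgG, against 50.4% in the wild type IP and 50.8% in the wild type IgG list. Transcripts under 1000 nt gave 30.6% in the knockout IP and 33.5% in the knockout IgG list, against 23.4% in the wild type IP and 24.9% in the wild type IgG list. Within 100 nt of the end lay 4.92% of summits in the knockout IP and 5.81% in the knockout IgG list, against 0.144% in the wild type IP and 0.200% in the wild type IgG list, whose narrowest regions were 236 and 233 nt wide, against 140 and 135 nt in knockout. The IgG list leaned further to the end than the IP list in knockout cells, while the wild type intervals overlapped, and by position of the region's midpoint the last part held 31.2% in the knockout IP, 34.8% in the knockout IgG, 33.0% in the wild type IP and 34.1% in the wild type IgG list.

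**Figure D5:**
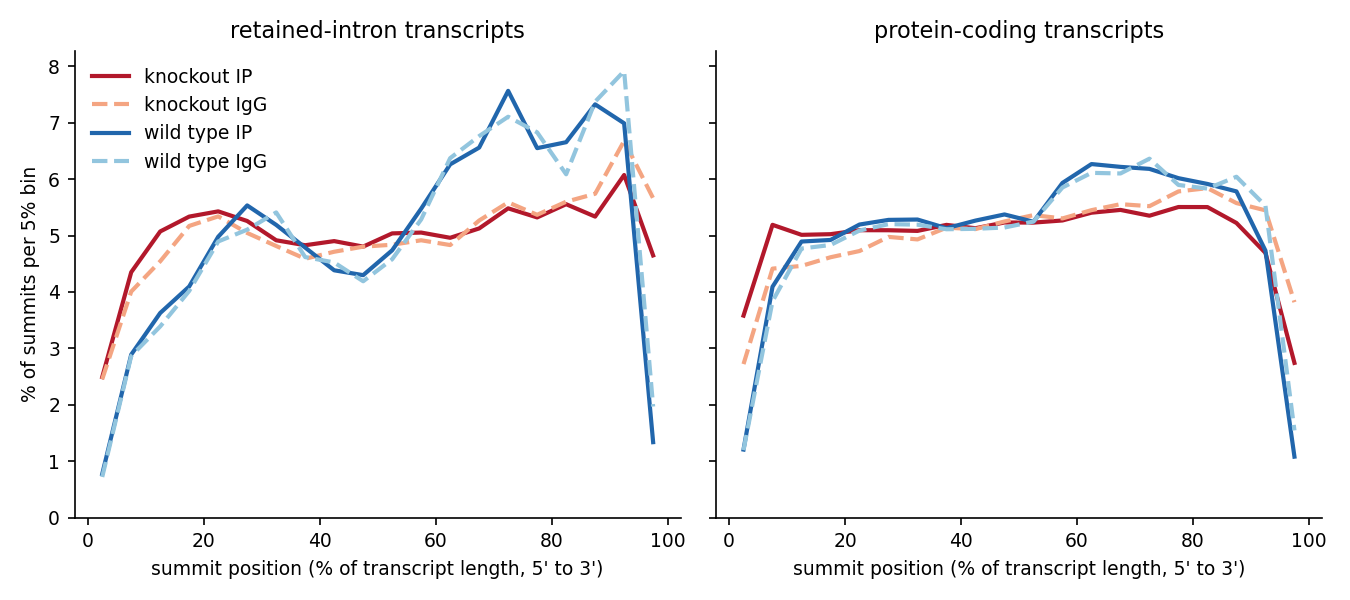
Share of summits in each 5% of transcript length, from the 5′ to the 3′ end, on retained-intron (left) and protein-coding (right) transcripts, with knockout lists in red and wild type lists in blue, IP solid and IgG dashed. The wild type lines rise toward the 3′ end of retained-intron transcripts (40.7% and 41.7% of summits in the last of 3 equal parts) above the knockout lines (35.7% and 38.1%).

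The RNA of genes with retained-intron IP peaks had median changes near 0 between genotypes, and the balance of genes that rose and fell depended on the filter on low counts. Genes were classed by IP peaks in both genotypes (2447 genes, 2384 with enough counts to test), in knockout alone (2079, 1624 tested) and in wild type alone (452, 445 tested). In the first class 171 genes (7.17%) rose and 322 (13.5%) fell in knockout cells at an adjusted p under 0.05, where 5.17% of all 16277 genes tested rose and 8.79% fell. In the knockout class 73 (4.50%) rose and 165 (10.2%) fell, and in the wild type class 31 (6.97%) rose and 51 (11.5%) fell. When genes of low count were kept in, the order turned in 2 classes, with 395 genes higher and 301 lower in the first and 75 higher and 44 lower in the wild type class, and 154 higher and 171 lower in the knockout class. The median log2 changes were 0.00, -0.03 and 0.03 in the 3 classes and 0.00 over all genes. Without the filter the class medians were 0.07, 0.03 and 0.10. RPL13A and ATP5ME, tested in both fits, moved up as well, from -0.56 to -0.49 and from 0.29 to 0.36. The scaling between libraries was computed again when the low-count genes were kept. The parts of scaling and of the added genes in the turned order were not tested. The classes differ in level, with median log2 CPM of 6.52, 5.02 and 5.20 against 4.26 over all genes tested, and the part of level in the shares was not tested.

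In Ribo-seq, genes with peaks in both genotypes had a larger share of lower footprints than all genes tested. Of genes with peaks in both genotypes 33 of 2231 rose (1.48%) and 146 fell (6.54%), where 1.47% of all 8887 genes tested rose and 3.87% fell. The median log2 change of this class was -0.03, against 0.00 over all genes tested. Its footprint level was higher, at a median log2 CPM of 6.86 against 5.70, and the part of level in the shares was not tested. In the knockout class 18 rose and 34 fell (2.94%) of 1155, a share under that of all genes tested, with the order turned when the replicate number was a block (95 higher, 84 lower), and in the wild type class 7 rose and 17 fell of 402. Leaving out 1 library in turn moved the first class to between 18 and 74 genes that rose and between 88 and 180 that fell, lowest without a wild type library and highest without a knockout one. CALR, a chaperone gene of the endoplasmic reticulum, was among those that fell, with footprints at 250.5 and 202.8 CPM in knockout cells, against 457.3 and 489.4 CPM in wild type cells (log2 -1.08, SE 0.16, adjusted p = 0.00278 by edgeR). CALR-207 had a fold of 36.9 in the knockout IP and 22.9 in the knockout IgG list, against 50.3 in the wild type IP and 46.8 in the wild type IgG list. ACTB footprints also fell (log2 -0.34, SE 0.09, adjusted p = 0.0482 by edgeR), a call lost without wild type library 1 (-0.36) or 2 (-0.32).

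Peak height went with RNA level in wild type lists and hardly in knockout lists. Across genes, which are not independent replicates, the Spearman correlation of the highest retained-intron fold with mean log2 CPM was 0.09 over 4008 genes in the knockout IP and 0.03 over 3766 in the knockout IgG list, against 0.40 over 2829 in the wild type IP and 0.39 over 2821 in the wild type IgG list. The knockout over wild type fold ratio in the IP lists had, over 4 equal groups of genes in rising order of RNA level, median log2 values of 0.55, 0.20, 0.09 and -0.08. In the IgG lists these medians were 0.72, 0.26, 0.05 and -0.13. The change in fold did not track the change in RNA, with a Spearman correlation of -0.08 over 2384 genes in the IP lists and of -0.07 over 2239 in the IgG lists.

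Among the other named genes with retained-intron peaks, RNA rose in knockout cells for SNRPG of the spliceosome (log2 0.46, SE 0.10, adjusted p = 0.0232 by edgeR), MAGOHB (0.49, SE 0.12, adjusted p = 0.03), ALKBH5, an RNA demethylase gene (0.38, SE 0.07, adjusted p = 0.0133), TUBA1B, an alpha-tubulin gene (0.41, SE 0.11, adjusted p = 0.048), CDK4, a cell cycle kinase gene (0.31, SE 0.08, adjusted p = 0.0471), and ATP5ME (0.29, SE 0.08, adjusted p = 0.0433). RNA fell for SCAMP2 (log2 -0.41, SE 0.09, adjusted p = 0.0183 by edgeR) and CALR (-0.41, SE 0.08, adjusted p = 0.012). The calls of ATP5ME and CDK4 were lost without knockout library 1 (0.26 and 0.30) and that of TUBA1B without knockout library 2 (0.40). ALKBH5-202 had a fold of 4.69 in the knockout IP and 4.27 in the knockout IgG list, against 12.2 in the wild type IP and 12.4 in the wild type IgG list. TUBA1B-201 had 75.8 and 64.3 in the knockout IP and IgG lists, against 141.3 and 129.8 in the wild type IP and IgG lists.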

How the data were processed

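The authors deposited 4 peak lists in narrowPeak form, called on transcript sequences against input from merged replicates, per the file headers and row names; the submitters' processing notes name Bowtie2, MACS2 and bedtools, without versions. Column 5 is a score, column 7 a fold (ratio) at the summit, and columns 8 and 9 are −log10 p and q values, all as deposited by the authors. The RNA-seq and Ribo-seq files hold read counts per gene deposited by the authors, made from alignments with duplicates removed, per the file headers, with STAR, featureCounts and GRCh38.p13 in the submitters' processing notes. The release of the transcript set, the placing of reads with several matches and the strand setting are not given in the sources used here. Positions are on transcripts; no genome coordinates were used.

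Here the lists were read with Python 3.11.15 and pandas 2.3.3. Peaks were shared when they overlapped by at least 1 base on the same transcript, paired by nearest summit, and called past 1.5-fold. No test was made between lists, since each group has 1. Counts were tested with edgeR 4.0.16 (TMM, filterByExpr, quasi-likelihood test, Benjamini-Hochberg over all genes, threshold 0.05). The 2 knockout RNA-seq libraries differed by 2.99% more than sampling noise (chi-square per degree of freedom 1.03, against 12.5 for the wild type pair) and were summed to 1 sample, which leaves 1 sample against 2; the lone sample is assumed to vary like the wild type pair. DESeq2 1.42.0, RLE scaling, no filter, other overlaps, a −log10 q of at least 3 and left-out libraries were alternatives. The edgeR script was tested on simulated data.

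Transcripts were named by rule: per genotype the 5 genes with the highest column 9 among IP peaks without IgG overlap, the 5 with the highest column 7, the 3 with most transcripts, the 5 highest on transcripts without a peak in the other genotype, and 3 of each gene list. RNA and footprint values are given for those that passed the test and for SNHG3, TMEM45A, USP32P2 and the targeted NAT10. The members and gene lists were chosen with earlier results of these data known. No peak sequence is shown. One marker is not reported here.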

Additional observations from a re-analysis of the deposited data

Results flagged for a closer look

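The ratio of retained-intron peak numbers, IP over IgG, was 1.16 in knockout cells and 0.995 in wild type cells, so that IP peaks were the more numerous in one genotype and the fewer in the other. There is 1 list per group, and the difference between the genotypes was not tested. Over all peaks the ratios were 1.10 in knockout cells and 0.988 in wild type cells.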

How the results depend on the processing

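Counting each region once gave 12473 regions in the knockout IP, 11434 in the knockout IgG, 6837 in the wild type IP and 6767 in the wild type IgG list. By the highest summit of each region, the last of 3 equal parts then held 36.3%, 38.7%, 40.4% and 41.5% in that order, as in the main count. By region midpoint, with every summit row counted, it held 31.2%, 34.8%, 33.0% and 34.1%. By midpoint the knockout IgG share was thus above the wild type IgG share. Counting by region and the rule of summits within 100 nt were chosen after seeing the data. The share of knockout IP peaks without knockout IgG overlap was 28.3% with overlap of 50% of both peaks, 2.90% when any retained-intron peak of the gene counted, 28.7% with summits within 100 nt and 20.4% by region. The wild type share was 8.70%, 1.57%, 15.3% and 7.15% under the same rules. The share of knockout IP peaks without wild type IP overlap was 62.7%, 23.2%, 72.9% and 57.5%, and that of wild type IP peaks without knockout IP overlap 53.7%, 8.79%, 48.8% and 32.2%. On pairs with summits within 100 nt the median log2 IP over IgG ratio was 0.0066 in knockout cells, above 0 where it was below 0 by overlap, with 7.37% higher and 6.21% lower, and 0.0319 in wild type cells, with 0.260% lower. With 50% overlap 9.95% of knockout pairs were lower. The knockout over wild type IP median was -0.42 with 50% overlap (17.9% higher, 44.4% lower) and -0.26 with summits within 100 nt (22.2% higher, 38.1% lower). A −log10 q of at least 3 moved none of the peak results past the spread used here.

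For RNA, DESeq2 called 64 genes higher in the class with peaks in both genotypes, 27 higher and 88 lower in the knockout class, and 3 higher and 24 lower in the wild type class, and it did not call SCAMP2, MAGOHB, EIF1B, SNRPG, ATP5ME or CDK4. Without a filter, 395 genes rose and 301 fell, 154 rose and 171 fell, and 75 rose and 44 fell in the 3 classes in that order, so that more rose than fell in 2 of them, and medians were 0.0715, 0.0291 and 0.0973. With 4 libraries and no replicate block, 503 rose and 627 fell, 213 rose and 369 fell, and 96 rose and 111 fell; with the replicate block, 445 and 587, 180 and 342, and 89 and 103. The block shares numbers only: same-numbered libraries had correlated deviations of -0.0167 in RNA-seq and 0.231 in Ribo-seq, over 2 pairs. Without 1 wild type library the RNA fit has no residual degrees of freedom, so only values were taken.

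For footprints, DESeq2 gave 14 up and 78 down, 3 and 11, and 1 and 4 in the same classes, and did not call DDX17 or ACTB. No filter gave 66 up in the first class, 36 and 53 in the knockout class and 11 and 32 in the wild type class. The replicate block gave 173 and 338, 95 and 84, and 23 and 52, with more up than down in the knockout class. Leaving out 1 library gave 18 to 74 up and 88 to 180 down in the first class (median -0.061 to -0.0217), 9 to 39 and 15 to 45 in the knockout class, and 2 to 11 and 9 to 24 in the wild type class. Merged peak lists allow no left-out replicate.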

Other observations

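Regions that ran past the annotated end of their retained-intron transcript numbered 792 of 12473 in the knockout IP list and 740 of 11434 in the knockout IgG list, against 21 of 6837 in the wild type IP and 30 of 6767 in the wild type IgG list. Among the 100 highest retained-intron peaks, those of ribosomal protein genes numbered 44 in the knockout IP and 36 in the knockout IgG list, against 63 in the wild type IP and 63 in the wild type IgG list.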
